A study of Homo sapiens with 33 samples.

Results

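The genes described here are FOXL2 and 9 genes that lie near it on chromosome 3: FOXL2NB, LINC01391, PIK3CB, FAIM, MRAS, ESYT3, COPB2, MRPS22 and CLSTN2. They were chosen by name and position, as 10 of the 58735 genes in the count table, and all 10 were found in it. A wider window of 1.5 Mb on either side of the start of FOXL2 holds 54 genes of the table. Gene expression was measured by bulk RNA-seq in the human embryonic stem cell line H9, engineered as H9-DDdCas9VP192-FOXL2, a single clone in which a dead Cas9 fused to a destabilising domain and to the VP192 activator can be sent to the FOXL2 promoter by gRNA 2 and gRNA 8. All groups carried the activator and both guides and went through the same 14-day gonadal differentiation. The 33 libraries form 11 groups of 3: day 4, sampled before induction, and on days 6, 8, 10, 12 and 14 a control group (CTRL) without the inducing compounds and an induced group (IND), which received doxycycline and trimethoprim from day 4. Doxycycline switches on the activator gene and trimethoprim stabilises the protein. IND therefore differed from CTRL by both compounds as well as by the activation, and no group received the compounds alone. All libraries come from 1 differentiation, with 3 wells in each group, so each p below measures well-to-well spread and not the spread of repeated experiments.

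FOXL2 is a forkhead transcription factor of the ovarian granulosa cell lineage, the eyelid and the pituitary, and mutations in it cause the eyelid syndrome BPES. In a CRISPR activation system the guides carry a transcriptional activator to a promoter, and genes that start close to the guides can be transcribed together with the target. FOXL2 shares its upstream region with FOXL2NB, which is transcribed in the opposite direction, and on its downstream side it is followed by LINC01391, a long non-coding RNA gene on its own strand. The more distant genes have unrelated roles in signalling, vesicle transport and mitochondrial translation, and the question for them was whether their levels moved when FOXL2 was activated.

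FOXL2 (ENSG00000183770) spans chr3:138944224-138947140 on the minus strand of GRCh38, in the coordinates of the count table. FOXL2NB (ENSG00000206262) spans chr3:138947234-138953451 on the plus strand, and 93 bp separate the annotated starts of the 2 genes. LINC01391 (ENSG00000244578) spans chr3:138935189-138944020 on the minus strand, and 203 bp separate its start from the end of FOXL2. The target sites of the guides are shown because they place the activator relative to both starts. They were found in the RefSeq promoter of FOXL2 (assembly GRCh38.p14) by the last 8 bases of each guide followed by NGG, and are written 5′ to 3′ on the minus strand with the PAM in capitals.

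gRNA 2 site: gagatgaactcgcccgtgcgCGG

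gRNA 8 site: gggcgcgtgagcctggctgtCGG

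The gRNA 2 site lies at chr3:138947205-138947227, from 68 to 87 bp upstream of the FOXL2 start without its PAM, in the gap between FOXL2 and FOXL2NB and in no annotated exon. The gRNA 8 site lies at chr3:138947301-138947323, from 164 to 183 bp upstream of the FOXL2 start, within exon 1 of FOXL2NB, in its 5′ UTR. The 8 bases searched, CCCGTGCG and CTGGCTGT with the adjoining NGG, occur on either strand in 0.103% and 0.208% of 35116 promoters of the same length (300 bp), so the short match alone would not name a site. All 20 bases of each site without its PAM equal the guide sequence that the study lists. The whole gap, chr3:138947141-138947233, is shown on the minus strand with the 20 bases matched by gRNA 2 in capitals.

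FOXL2 to FOXL2NB gap: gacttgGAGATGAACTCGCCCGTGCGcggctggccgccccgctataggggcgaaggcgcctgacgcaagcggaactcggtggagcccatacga

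This gap holds 12 CpG in 93 bp and 67.7% G and C. The promoter windows of FOXL2 and FOXL2NB, from 250 bp before to 50 bp after each start, both had 68.0% G and C, against a median of 58.7% over all promoters in the table. The window of LINC01391 had 43.3%.

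The libraries held between 23940837 and 51912815 counts, with a median of 41420455. Levels are given as CPM, the counts scaled to the TMM-normalized size of each library, and 3 counts, used as the floor, corresponded to between 0.0565 and 0.130 CPM. This floor covers counting error only. The libraries are non-directional, so reads of overlapping genes on opposite strands cannot be separated: 7.8% of the exonic length of MRPS22 and 1.05% of that of COPB2 are shared with other genes, and none of that of the other 8 members. The library day 10 IND replicate 2 stands apart, with 19254 genes above 0 counts against 23358 to 29002 in the other 32 libraries, and with 1966 CPM summed over 6 pluripotency markers against 394 and 468 CPM in replicates 1 and 3. LIN28A carries most of this sum, with a mean of 812 CPM ± 869 (SD, n = 3) in day 10 IND, where the summed mean was 943 CPM. POU5F1 had 0.503 CPM ± 0.463 in the same group. The library is kept, and results that rest on it are given with and without it. Of the pluripotency markers, POU5F1 had a mean of 71.9 CPM on day 4 and at most 4.73 CPM in any later group, while SOX2 had 46.4 CPM on day 4 and 37.9 to 72.6 CPM later, and DPPA4 had 124 CPM and then 45.7 to 102 CPM. Of 7 markers of the coelomic epithelium and early gonad, 2 to 5 reached 1 CPM in a group, with group means of 54.9 to 452 CPM for GATA4 and 0.245 to 51.6 CPM for UPK3B. Of 7 markers of supporting gonadal and granulosa cells, 3 to 5 did, with 5.59 to 32.9 CPM for AMHR2 and 0.553 to 39.9 CPM for RSPO1. NR5A1 and CYP19A1, the steroidogenic regulator and the aromatase of these lists, stayed below 0.5 CPM in every group mean.

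FOXL2 was close to silent without induction. The 3 day 4 libraries had 10, 11 and 12 counts (0.364, 0.381 and 0.388 CPM), and the 15 CTRL libraries had between 1 and 12 counts each. On day 6, after 2 days of DOX and TMP, the IND libraries had 577, 546 and 461 CPM in replicates 1, 2 and 3. Every one of the 15 IND libraries lay far above every uninduced library, with a lowest value of 148 CPM against a highest uninduced value of 0.388 CPM. On day 8 the IND libraries had 247, 257 and 321 CPM. On day 10 they had 257, 290.2 and 236 CPM, and replicate 2, which stands apart in other genes, had the highest of these values. On day 12 the values were 242, 211 and 219 CPM, and on day 14 they were 185, 179.7 and 148 CPM. The level was therefore highest on day 6 and lowest on day 14, with no overlap between these days.

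The difference between IND and CTRL in FOXL2, the targeted gene, was 11.32 ± 0.26 on the log2 scale (SE, n = 3 per group) on day 6, with an adjusted p of 2.11e-11 by edgeR's quasi-likelihood test. On days 8, 10, 12 and 14 it was 12.19 ± 0.21, 12.77 ± 0.28, 10.87 ± 0.22 and 10.55 ± 0.24, and all passed the test. The size of these ratios depended on few counts in CTRL, which summed to 23, 7, 5, 17 and 10 counts over the 3 libraries on days 6, 8, 10, 12 and 14. Among all genes above 0, FOXL2 ranked between 148 and 188 by FPKM, a level scaled to gene length, in the day 6 IND libraries. In those of day 14 it ranked between 505 and 669. In bulk RNA, fewer cells that express a gene and less RNA per cell cannot be told apart.

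FOXL2NB, a protein-coding gene of unestablished function named for its position, rose with FOXL2. The uninduced libraries together held 20 counts of it, with 9 of 18 libraries at 0 and a highest value of 6 counts. On day 6 the IND libraries had 84.2, 75.2 and 62.5 CPM. On day 8 they had 36.3, 43.0 and 56.3 CPM, and on day 10 they had 54.3, 50.6 and 46.5 CPM. The day 6 libraries again lay above all later ones. On day 12 the replicates spread most widely, with 24.9, 34.8 and 46.4 CPM, and on day 14 they had 41.5, 39.7 and 35.7 CPM. The pooled counts of IND and CTRL gave a ratio of 2746 on day 6 (95% interval for counting error 939 to 13316), from 9088 and 3 counts. The corresponding ratios were 2859 on day 8 (791 to 23613), 1645 on day 12 (563 to 7980) and 3486 on day 14 (625 to 137736), with 2, 3 and 1 counts in CTRL. On day 10, with 7 counts in CTRL, the ratio was 1035 (502 to 2576). The fitted differences lay between 9.95 and 11.39 on the log2 scale and passed the test on all 5 days, with adjusted p between 7.78e-12 and 0.00178. The wide intervals show that the order of the days in these ratios is not resolved.

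LINC01391 had no count in any of the 18 uninduced libraries. On day 6 the IND libraries had 56.6, 36.5 and 40.4 CPM. On day 8 they had 29.8, 29.4 and 34.9 CPM, and on day 10 they had 33.4, 34.1 and 30.5 CPM. Replicate 2 of day 10 did not stand apart in LINC01391. On day 12 the values were 19.9, 18.9 and 28.4 CPM, and on day 14 they were 21.8, 20.2 and 20.5 CPM. Against the highest floor of a CTRL library of the same day, the mean of IND was at least 491-fold higher on day 6, 391-fold on day 8, 477-fold on day 10, 339-fold on day 12 and 171-fold on day 14. LINC01391 passed the test on all 5 days, with adjusted p between 9.04e-09 and 0.00173. Per length, the mean level on day 6 IND was 179 FPKM for FOXL2, 15.98 FPKM for FOXL2NB and 11.3 FPKM for LINC01391, and on day 14 IND it was 58.8, 8.57 and 5.38 FPKM.

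**Figure D1:**
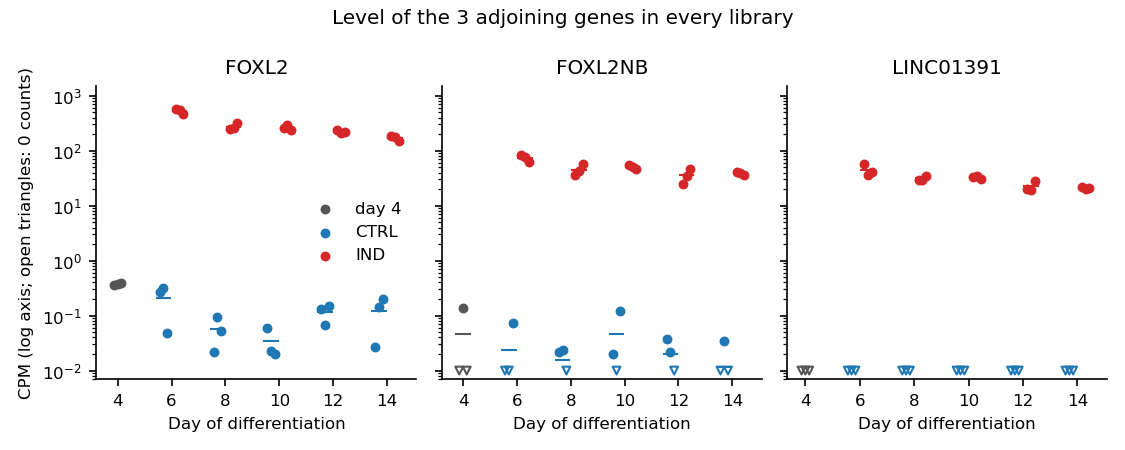
CPM on a log axis of FOXL2, FOXL2NB and LINC01391 in every library by day of differentiation, with day 4 in grey, CTRL in blue and IND in red. Points are libraries, short lines are group means and open triangles, drawn at the bottom, are libraries with 0 counts. All IND libraries lie at 18.9 CPM or more in the 3 genes, and all uninduced libraries at 0.388 CPM or less.

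Of the 10 genes, 4 passed the test between IND and CTRL on day 6, where 3.66% of 19133 genes tested passed. The 4 were FOXL2, FOXL2NB and LINC01391, which rose, and CLSTN2, which fell. FOXL2 is the targeted gene, and FOXL2NB and LINC01391 passed the filter on low counts only through their IND libraries. The shares of all genes are thus a measure only for the other 7 members. The count was 4 of 10 on day 8 (14.2% of all genes passed) and 4 of 10 on day 10 (2.03%), with the same 4 genes. It was 5 of 10 on day 12 (5.42%), where MRAS fell too, and 5 of 10 on day 14 (8.43%), where MRAS and ESYT3 fell and CLSTN2 did not pass. The 3 genes that rose had the 3 largest fitted increases of all genes tested on each of the 5 days, and the fourth largest was between 6.12 and 8.99 on the log2 scale. Over the other 7 members, the median log2 difference was -0.09, -0.07, -0.29, -0.34 and 0.03 on days 6, 8, 10, 12 and 14, against a median over all genes between -0.01 and 0.02. None of the 7 rose by the test on any day, and their differences lay between -1.30 and 0.73. The counts fell to 2 on day 10 with the replicate number as a block, where only FOXL2 and FOXL2NB passed (LINC01391 had an adjusted p of 0.0597), and to 3 on days 12 and 14 with limma-trend on FPKM.

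The level of FOXL2 in IND was also compared between consecutive days, in 1 fit over the 15 IND libraries. From day 6 to day 8, FOXL2 fell by 0.94 on the log2 scale (SE 0.14, adjusted p = 0.00175), and it was the only 1 of the 10 genes to pass, where 2.29% of all genes passed. FOXL2NB differed by -0.71 ± 0.20 (adjusted p = 0.0937) and LINC01391 by -0.50 ± 0.18 (adjusted p = 0.208) at the same step. FOXL2NB passed without day 10 IND replicate 2 (adjusted p = 0.0360) and without day 12 IND replicate 1 (0.0356), and CLSTN2, which differed by -0.56, passed without the former (0.0288). None of the 10 passed from day 8 to day 10 (0.68% of all genes), from day 10 to day 12 (0.0469%) or from day 12 to day 14 (0.76%). Neighbouring days from day 8 onwards are therefore not resolved for these genes. The difference between IND and CTRL itself changed over the 5 days in 2.38% of genes by the test of 4 interaction terms, and in none of the 10 members. The lowest adjusted p were 0.158 for ESYT3 and 0.338 for FOXL2, and LINC01391, at 0 in all CTRL libraries, carries no information in this test. The CTRL libraries of a day summed to between 5 and 23 counts for FOXL2 and between 1 and 7 for FOXL2NB. A lack of change over days can therefore not be read from this test for these 2 genes. Alternatives that called 1 or 2 of the 10 in this test are given among the effects of processing.

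The ratio of FOXL2NB to FOXL2 within a library is free of the scaling between libraries. In percent of the FOXL2 counts, FOXL2NB had 14.6, 13.8 and 13.5 on day 6, and 14.7, 16.7 and 17.6 on day 8. On day 10 it had 21.1, 17.5 and 19.7, and on day 12 it had 10.3, 16.5 and 21.2. On day 14 it had 22.4, 22.1 and 24.2. All 3 libraries of day 14 lay above all other IND libraries, and the 3 of day 6 lay below all others but replicate 1 of day 12. The mean was 14.0% ± 0.548 (SD, n = 3) on day 6 and 22.9% ± 1.14 on day 14. LINC01391 had 9.81, 6.69 and 8.76% of the FOXL2 counts on day 6, and its mean rose from 8.42% ± 1.59 there to 12.3% ± 1.41 on day 14, with 10.0% ± 2.56 on day 12. An exact permutation test over 1401400 partitions of the 15 libraries gave p = 0.0411 for FOXL2NB and p = 0.0430 for LINC01391, both 0.0430 after adjustment over the 2 ratios. The change of the ratios with the day is not firm, as the same exact test gave p of up to 0.117 and 0.109 with single libraries left out, and 0.0563 and 0.0503 with days permuted within a replicate number. With each gene scaled to its length, FOXL2NB stood at 8.92% of FOXL2 on day 6 and 14.6% on day 14.

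The nearest expressed genes beyond this trio did not pass the test on any day. PIK3CB (ENSG00000051382, chr3:138652699-138834938, minus strand), a catalytic subunit of phosphoinositide 3-kinase, starts 100250 bp beyond the end of LINC01391. On day 6, where FOXL2 was highest, its mean was 24.9 CPM ± 1.39 in IND and 28.5 CPM ± 1.58 in CTRL (SD, n = 3), a log2 difference of -0.18 ± 0.11 (SE, adjusted p = 0.549). On day 14 the means were 21.1 and 20.6 CPM. MRPS22 (ENSG00000175110, chr3:139005806-139357223, plus strand), a subunit of the mitochondrial ribosome, starts 52354 bp beyond the end of FOXL2NB. Its mean on day 6 was 35.4 CPM ± 0.729 in IND and 34.7 CPM ± 3.87 in CTRL, a log2 difference of 0.05 ± 0.11 (adjusted p = 0.916). Over the 5 days its difference lay between -0.27 and 0.09. The lowest IND values of both genes came from day 10 replicate 2, with 11.3 CPM for PIK3CB and 21.1 CPM for MRPS22, below every other library of the series.

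FAIM (ENSG00000158234, chr3:138608606-138633376, plus strand), an inhibitor of apoptosis triggered by the Fas receptor, had a log2 difference between -0.09 and 0.38. On day 10 its IND libraries (5.14 to 5.79 CPM) did not overlap with CTRL (4.02 to 4.47 CPM), but the difference of 0.38 ± 0.19 did not pass (adjusted p = 0.409), nor did that of 0.17 ± 0.17 on day 12 (0.594), where the groups did not overlap either. Lack of overlap is given here and below as a description, as the share of all genes that show it was not counted. COPB2 (ENSG00000184432, chr3:139355600-139389732, minus strand), a subunit of the COPI coat of Golgi vesicles, was the most highly expressed of the 7 in CPM, with 169.7 to 260.04 CPM over all libraries. Its log2 difference lay between -0.13 and 0.14, and it passed only in 1 alternative, on day 8 without IND replicate 3 (-0.20, adjusted p = 0.0371).

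CLSTN2, MRAS and ESYT3 were lower in IND, each on some of the days. CLSTN2 (ENSG00000158258, chr3:139935185-140577397, plus strand), which encodes calsyntenin 2, a cadherin-like synaptic membrane protein, starts 988 kb from the start of FOXL2. On day 6 it had 37.5, 33.8 and 32.2 CPM in IND and 58.2, 50.2 and 49.1 CPM in CTRL. On day 8 it had 22.5, 22.7 and 24.9 CPM against 35.9, 32.9 and 42.1 CPM. The groups did not overlap on either day. On day 10 it had 19.4, 13.8 and 19.8 CPM against 36.5, 34.9 and 37.0 CPM, and on day 12 it had 13.1, 18.7 and 19.7 CPM against 30.4, 44.7 and 51.5 CPM. On day 14 the groups overlapped, with 17.97, 22.03 and 24.8 CPM against 39.0, 23.7 and 48.0 CPM. The log2 differences were -0.59 ± 0.11, -0.65 ± 0.10, -1.03 ± 0.17 and -1.30 ± 0.22 on days 6, 8, 10 and 12, with adjusted p of 0.00487, 0.00181, 0.0369 and 0.0139, and -0.76 ± 0.26 on day 14 (0.152). On day 10 the call was lost when any one of 5 libraries other than IND replicate 2 was left out (adjusted p 0.108 to 0.245), while without IND replicate 2 it remained. On day 12 it was lost without CTRL replicate 2 or 3 (0.0575 and 0.0606), and on day 14 it was gained without CTRL replicate 2 (adjusted p = 0.000944). CLSTN2 also passed on day 14 with DESeq2 (adjusted p = 0.00233), without the filter on low counts (3.7e-05), with the replicate block (0.0482) and in 1 fit over all 33 libraries (0.0183). The day 6 call was lost in that last fit (0.116), the day 10 call with the replicate block (0.117), and with limma-trend on FPKM CLSTN2 passed on none of these days (0.0779 to 0.225 on days 6 to 12).

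MRAS (ENSG00000158186, chr3:138347648-138405534, plus strand), a RAS-related GTPase that acts in MAP kinase signalling, ends 542 kb from the start of FOXL2. On day 12 it had 30.1, 37.0 and 33.8 CPM in IND and 47.8, 48.1 and 50.6 CPM in CTRL, and on day 14 it had 33.8, 33.6 and 36.2 CPM against 46.5, 44.1 and 55.5 CPM. The groups did not overlap on either day, and the log2 differences were -0.54 ± 0.12 (adjusted p = 0.0372) and -0.49 ± 0.10 (0.00882). The day 12 call was lost without any one of 5 of the 6 libraries, all but IND replicate 1, with adjusted p from 0.0571 to 0.174, and with the replicate block (0.0501). With limma-trend on FPKM, MRAS passed on neither day (adjusted p = 0.147 and 0.135). On day 8 the groups did not overlap either, with 31.7 to 32.98 CPM against 33.9 to 40.8 CPM, but the difference of -0.23 ± 0.09 did not pass (adjusted p = 0.114). On day 10 the IND libraries had 35.8, 53.8 and 37.0 CPM and CTRL had 53.0, 52.9 and 49.3 CPM. The high value was that of replicate 2, and without it the difference was -0.51 (adjusted p = 0.000298), against -0.29 (0.494) with it.

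ESYT3 (ENSG00000158220, chr3:138434586-138481686, plus strand), an extended synaptotagmin of contact sites between the endoplasmic reticulum and the plasma membrane, had low levels throughout, between 9 and 220 counts per library. On day 14 it had 1.31, 1.97 and 1.80 CPM in IND and 3.13, 3.16 and 4.22 CPM in CTRL, a log2 difference of -1.03 ± 0.26 (adjusted p = 0.0227). This call was lost without CTRL replicate 1 or 3 or IND replicate 1 or 3 (0.0518 to 0.0963), in 1 fit over all 33 libraries (0.180) and with limma-trend on FPKM (0.367). The groups did not overlap on days 10 and 12 either, with 1.43 to 3.09 CPM against 3.51 to 4.14 CPM and 1.99 to 3.35 CPM against 3.50 to 4.84 CPM, but the differences of -0.64 ± 0.34 and -0.78 ± 0.27 did not pass (adjusted p = 0.429 and 0.147). On day 6 the groups overlapped, with 1.23, 1.15 and 2.38 CPM against 0.726, 1.54 and 0.649 CPM, and the difference was 0.73 ± 0.40 (adjusted p = 0.459). Its difference changed in sign between day 8 (0.38) and day 10 (-0.64), but the change over days did not pass the interaction test.

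**Figure D2:**
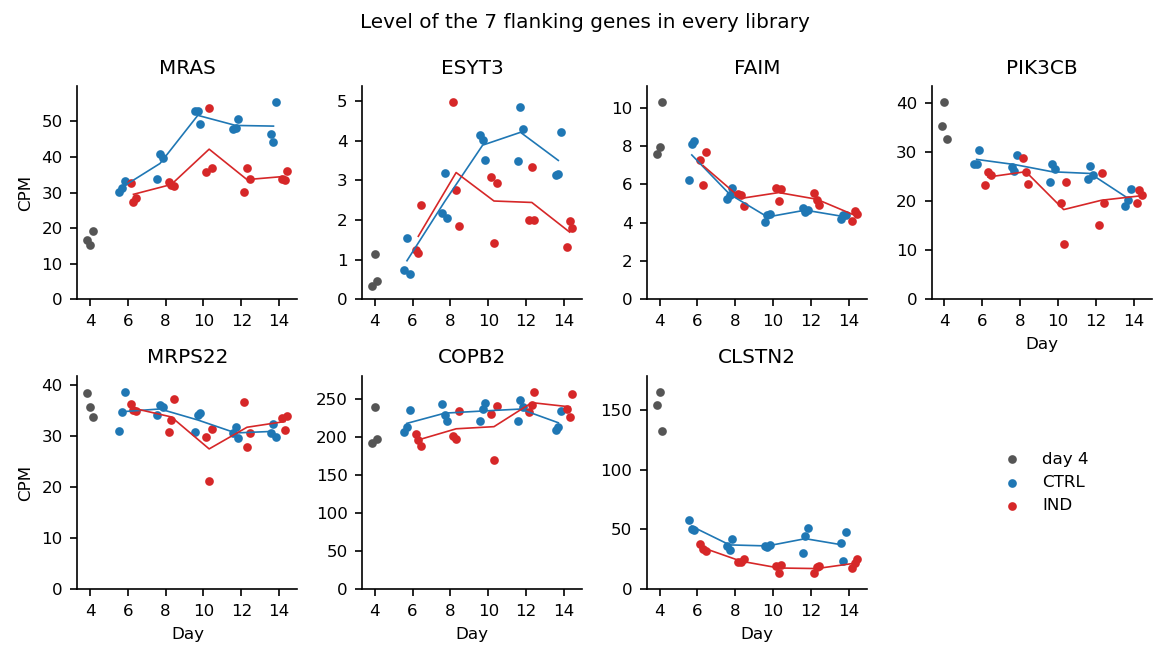
CPM of MRAS, ESYT3, FAIM, PIK3CB, MRPS22, COPB2 and CLSTN2 in every library by day of differentiation, with points for libraries and lines through group means (day 4 grey, CTRL blue, IND red), on linear axes that start at 0. Without overlap, CLSTN2 lies lower in IND on days 6 to 12, MRAS on days 8, 12 and 14, ESYT3 on days 10 to 14 and PIK3CB and COPB2 on day 6, FAIM lies higher on days 10 and 12, and the groups overlap elsewhere. The share of all genes without overlap was not counted, and PIK3CB, COPB2 and FAIM did not pass the test on these days.

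Summed levels of cell type marker lists also differed between IND and CTRL, and not all in 1 direction. The sum of the 7 neuronal markers was lower in IND without overlap on days 8 to 14. It was 62.1 to 72.0 CPM against 99.9 to 146 CPM on day 8 and 133 to 212 CPM against 272 to 481 CPM on day 12. On day 6 it overlapped (30.1 to 49.2 against 44.8 to 53.1 CPM). On day 14 the mean of DCX was higher in IND (220 against 203 CPM), and those of the other neuronal markers were lower, as STMN2 with 62.0 against 232 CPM. The sum of the 6 muscle markers was lower without overlap on days 6, 8, 10 and 14, with 138 to 170 CPM against 284 to 386 CPM on day 6. On day 12 it overlapped (161 to 304 against 266 to 343 CPM). MYOD1 and MYOG, which define skeletal muscle, stayed below 0.5 CPM in every group mean. The sum of the 6 endothelial markers was lower in IND on day 6 (101 to 112 against 121 to 145 CPM). It was higher on day 8 (160.0 to 177 against 131 to 141 CPM) and overlapped on days 10 to 14. KDR carried the lower sum of day 6, with means of 66.2 CPM in IND and 96.7 CPM in CTRL. The means of PECAM1, CDH5, TIE1, EMCN and ERG were higher in IND on that day. On day 10 KDR was again lower (58.5 against 73.9 CPM) and the other markers higher, as PECAM1 with 17.4 against 3.55 CPM. The intermediate mesoderm list and the coelomic epithelium and early gonad list share WT1. Both sums were lower in IND without overlap on all 5 days. Not all members fell. On day 12, WT1 had means of 41.5 CPM in IND and 126 CPM in CTRL, and GATA4 had 214 and 399 CPM. OSR1 of the first list was higher on that day (23.8 against 5.59 CPM), as was NR2F1 of the second (189 against 115 CPM). The mean of OSR1 was higher in IND on all 5 days, and that of NR2F1 on days 6 to 12. EYA1, also of the first list, had a higher mean on days 6 and 8. The list of supporting gonadal and granulosa cells overlapped on all 5 days. The pluripotency list overlapped on all but day 10, where it was higher in IND. Whether these shifts of the summed levels had a part in the lower levels of CLSTN2, MRAS and ESYT3 was not tested. On day 4, before induction, CLSTN2 had its highest level of the series (132 to 165 CPM).

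The same genes moved during differentiation without induction, in comparisons of CTRL with day 4 that share the day 4 libraries. FOXL2NB and LINC01391 were too low to be tested. Of the 8 genes tested, 2 passed on day 6 (21.6% of all genes passed), 6 on day 8 (37.1%), 6 on day 10 (45.1%), 6 on day 12 (48.1%) and 5 on day 14 (47.6%). MRAS rose on all 5 days, from a mean of 16.9 CPM on day 4 to 48.7 CPM on day 14 (1.53 ± 0.14 on the log2 scale). ESYT3 rose on days 8 to 14, from 0.641 to 3.50 CPM (2.44 ± 0.45 on day 14). For both genes, the IND levels on day 14 lay between those of day 4 and of CTRL. CLSTN2 fell on all 5 days, from 150.5 CPM ± 17.0 (SD, n = 3) on day 4 to 36.9 CPM ± 12.3 on day 14 (-2.03 ± 0.23), and IND lay further from day 4 than CTRL did. FAIM and PIK3CB fell on days 8 to 14, by 0.99 and 0.81 on the log2 scale on day 14. COPB2 and MRPS22 did not pass on any day, with differences between -0.23 and 0.18. FOXL2 fell on days 8, 10 and 12 by 2.66, 3.31 and 1.67 on the log2 scale, a change between 33 counts over the 3 day 4 libraries and 7, 5 and 17 counts in CTRL. In these comparisons FOXL2 passed the filter on low counts only through its day 4 libraries. It is 1 of the 6 genes that passed on each of these days, and for it the shares of all genes are no measure. The day 12 call (adjusted p = 0.0344) was lost when any 1 of the 6 libraries was left out (0.0670 to 0.151). Without CTRL replicate 1 or 3, the count on day 8 was 3, as FOXL2, PIK3CB and FAIM did not pass.

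Over the whole window of 54 genes, 23 were tested on at least 1 day. The number that passed between IND and CTRL was 4 of 21 on day 6 (3.66% of all genes passed), 5 of 21 on day 8 (14.2%), 4 of 23 on day 10 (2.03%), 5 of 22 on day 12 (5.42%) and 5 of 22 on day 14 (8.43%). The trio is included on every day, and for it the shares of all genes are no measure. Besides the 10 members, 44 genes lie in the window, of which 13 were tested and 1 passed, on day 8, a share no higher than that of all genes on that day (14.2%). With a window of 0.5 Mb, the trio alone passed on days 6 to 12, and ESYT3 joined it on day 14.

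The remaining 31 genes of the window were never tested, and 7 of them had no count in any library. Together they had 481 counts in the 15 IND libraries and 425 in the 18 uninduced libraries, of 606503179 and 710881263 counts in all. More counts were found in IND for 16 of them and fewer for 8. A few of these genes, named after their values were seen, lie next to the trio or are known from it. BPESC1, a non-coding candidate gene for BPES whose nearest end lies 157 kb from the start of FOXL2, had 5 counts over the 15 IND libraries and 0 over the 18 uninduced ones. PISRT1, named for the polled intersex syndrome of goats, in which FOXL2 expression is lost, had 0 counts in all 33 libraries. PRR23A, PRR23B and PRR23C, between 58.3 and 94.96 kb from the start of FOXL2 on the side of FOXL2NB, had 3, 3 and 1 counts in IND and 0 elsewhere. No library had more than 2 counts of any of these 5 genes, which is under the floor of 3 counts. ATP5MC1P3, a pseudogene 57.2 kb from the start of FOXL2 on the other side, had 14 counts in IND and 7 elsewhere. An increase of the size seen in the trio was thus not found in any neighbour, and a change of a few counts could not be resolved at this depth.

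Across the 11 group means of log2(CPM + 0.5), FOXL2NB and LINC01391 had a Pearson correlation of 0.999 with FOXL2, as a description over 11 points of which 5 are IND. Of the 7 other members, PIK3CB, CLSTN2 and COPB2 had -0.53, -0.66 and -0.22, MRAS and MRPS22 -0.17 and -0.21, and ESYT3 and FAIM -0.04 and -0.01. Outside the window, the 5 genes with the highest correlation among 17426 were ABCA9 (0.968), HEXIM1 (0.956), MAP3K5 (0.954), HACD4 (0.949) and RAI2 (0.944). Their group means differed far less than those of the trio. HEXIM1, an inhibitor of the elongation factor P-TEFb, lay between 45.4 and 53.3 CPM in the IND groups and between 34.4 and 40.5 CPM in the others. RAI2, a gene induced by retinoic acid, lay between 2.54 and 6.01 CPM against 0.748 to 0.953 CPM.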

How the data were processed

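Reads of 33 non-directional polyA libraries were trimmed with fastp 0.23.2, mapped to GRCh38 with HISAT2 2.0.5 and counted per gene with featureCounts 1.5.0-p3, per the submitters' processing notes. The authors deposited the counts without normalization, and FPKM of the same genes, which were used only for levels per length and as an alternative. Gene positions in the table equal GENCODE 29 in all 54 genes of the window. From the deposited counts, low genes were dropped (filterByExpr), library sizes were scaled by TMM, and edgeR 4.0.16 in R 4.3.3 gave a robust quasi-likelihood test (two-sided) over all genes, with Benjamini-Hochberg adjustment at 0.05. IND was compared with CTRL and CTRL with day 4 over 6 libraries each, consecutive IND days over 15, and the interaction over 30. Ratios used an exact permutation test of the F between days. The tests were repeated without the filter, with RLE size factors, with DESeq2 1.42.0, with limma-trend (limma 3.58.1) on log2(FPKM + 1), with a replicate block, with 1 fit over 33 libraries, with windows of 0.5 and 5 Mb, and with each library left out. On simulated data for day 6, edgeR recovered 89 of 100 genes changed 2-fold and 99 of 100 changed 4-fold, with 4 false calls among 192. The simulation gave every gene the same spread between replicates and held no library that stands apart, so these rates need not hold for the real libraries.

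The members and lists were chosen with earlier results of these data known. Besides the members, genes of the window that passed on at least 1 day with a mean of at least 0.5 CPM were named, at most 12, and the 5 genes most correlated with FOXL2 among those with at least 1 CPM in a group. The 1 gene of the window outside the members that met this rule is not reported here. Replicates differed by more than counting error (chi-squared per gene 7.22 to 224 over 33 pairs). Promoter sequences are from RefSeq and matched 5 of the 10 members. Protein sequences were not used here.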

Additional observations from a re-analysis of the deposited data

How the results depend on the processing

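Of 339 recomputed counts of passing genes and ratio tests, 287 kept their side of 0.05 or stayed within 1.5 times the value given. No call changed its sign, and RLE size factors moved no log2 difference of the named genes between IND and CTRL by more than 0.00928. With limma-trend on FPKM, 3 members passed between IND and CTRL on days 12 and 14, 3 genes of the window on days 8, 12 and 14, 3 members between CTRL and day 4 on day 8, and 2 members (FOXL2 and LINC01391) in the interaction. DESeq2 and the fit without a filter each called 2 members from day 6 to day 8 of IND (FOXL2 and FOXL2NB) and 1, ESYT3, in the interaction. In a window of 0.5 Mb, 3 genes passed on days 8 and 12, and in one of 5 Mb, 8 passed on days 8 and 14. With single libraries left out, the members that passed between IND and CTRL on day 12 were 3 to 5, and 3 without CTRL replicate 2 or 3, the genes of the window were 3 to 7, the members between CTRL and day 4 on day 8 were 3 to 6, and those from day 6 to day 8 of IND 1 to 3. The exact permutation p lay between 0.00150 and 0.117 for the ratio of FOXL2NB and between 0.00452 and 0.109 for that of LINC01391, and leaving out most single libraries ended these calls. The cause of these changes was not tested, except that fewer libraries give fewer partitions.

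The replicate numbers do not pair the samples: in the 15 same-day, same-number pairs (1 IND library and 1 CTRL library each), deviations from the group means correlated between -0.297 and 0.231, and 5 correlations were over 0.1. With the replicate block, 2 members and 2 genes of the window passed on day 10, the ratios gave exact p of 0.0563 and 0.0503, and the other counts stayed within 1.5 times. Among single calls of the members, the block also ended that of MRAS on day 12 (adjusted p = 0.0501) and, between CTRL and day 4, those of FOXL2 and PIK3CB on day 8 (0.0522 and 0.0584) and of FOXL2 on day 12 (0.121), and it added CLSTN2 on day 14 (0.0482). Depth limits the uninduced levels of FOXL2, FOXL2NB and LINC01391 and the silent neighbours, which lie at or near the floor.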
